A study of Mus musculus with 38 samples.

Results

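The genes described here are those for proteins of the cytosolic ribosome, chosen by name: every probe set whose gene symbol was Rpl, Rps or Rplp followed by a number. Symbols of pseudogenes and of the Rps6k kinases were left out, which removed 2 and 4 genes. The rule used no measured value and found 21 of the 15644 named genes on the arrays. Of these, 15 encode core proteins of the ribosome, 9 of the large subunit (Rpl4, Rpl8, Rpl14, Rpl15, Rpl21, Rpl22, Rpl23, Rpl26 and Rpl31) and 6 of the small subunit (Rps3, Rps6, Rps9, Rps14, Rps15 and Rps15a). Another 5 are variants, genes named for their likeness to a core protein gene: Rpl3l, Rpl7l1, Rpl39l, Rps4l and Rps27l. The last, Rps19bp1, matched by its letters only and encodes a nucleolar protein that binds Rps19. The other genes of the cytosolic ribosome, among them Rpl10a, the stalk proteins and the core partners of the variants, were not analysed here.

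The small subunit of the ribosome reads the messenger RNA, and the large subunit joins amino acids and passes the growing chain out through a tunnel. Ribosomal protein messages are among the most abundant in any cell and are made in balance with each other, and many begin with a run of pyrimidines, the terminal oligopyrimidine tract, through which growth signals acting by way of mTOR control how many of them are on ribosomes. In Translating Ribosome Affinity Purification, a tagged protein of the large subunit is made only in the cells that use a chosen gene's promoter, and messages are collected with the tagged ribosomes. The question was how the messages for ribosomal proteins themselves were spread over cell types, over tumours and normal cortex, and over ribosome-bound and total RNA.

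The 38 arrays fell into 12 groups. Ribosome-bound RNA of dissected cortex of adult mice came from 5 reporter lines, named after Snap25 (neurons), Aldh1l1 (astrocytes), Cnp1 (mature oligodendrocytes), Pdgfra (oligodendrocyte progenitor cells) and Olig2 (cortical oligodendroglia), with 3 arrays each. Total RNA of cortex had 5 arrays. Dissected tumours of a mouse glioma model gave total RNA and the ribosome-bound RNA of their Olig2 cells, in 3 variations that the labels call Pdgf, Pdgf Cre and Recruited, with 3 arrays of each kind. All mice were of a mixed C57BL/6J, FVB and Swiss-Webster background, each cortex sample pooled 2 mice or more, and RNA went through a 2-cycle amplification. The labels give the tumours no pool size and no further allele or agent. Levels below are log2 array signals after quantile normalization over the 38 arrays, and differences are in log2 units, so that 1 stands for a 2-fold change. The words rose and fell are kept for changes of at least 2-fold with an adjusted p under 0.05 in limma. A level under log2 50 (5.64) is called dim. Of the 21 genes, 19 were above that limit in at least 3 arrays and were tested among 9799 genes. Rpl3l, a relative of Rpl3 known from muscle, was between 2.08 and 2.21 in all arrays, and Rpl39l, a relative of Rpl39 known from testis, was between 2.08 and 3.03, so neither was tested.

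Among the 6 cortical groups each reporter gene was highest in the cells it marks: Cnp, for example, at 14.23 in mature oligodendrocytes against 9.23 in cortex total RNA, and Aldh1l1 at 11.45 in astrocytes against 8.26. Messages of other cells were present, since Snap25 stood at 14.04 in mature oligodendrocytes and at 14.67 in progenitors, against 15.46 in neurons. The labels name cortex and tumours as separate datasets, so dataset and tissue cannot be told apart where tumours are set against cortex. The lowest value of the deposited data was shared within each group and differed between groups, as it does where groups were normalized apart, so the spread within a group may be too small and the scale between groups is uncertain. The median SD of a gene ran from 0.030 in neurons to 0.45 in Recruited tumour total RNA, and over the 19 genes from 0.065 to 0.56 in the same groups. Nothing in the labels says that arrays of a tumour group came from separate animals, so p-values there measure the spread between these arrays. In bulk RNA, fewer cells of a type and less RNA per cell cannot be told apart. Ribosomal protein genes have many near-identical processed copies in the genome, and how far a probe set reads those copies was not tested. A level of 1 gene is not set against that of another, since probe sets differ in brightness.

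On the quantile scale the messages for core ribosomal proteins had a median shift of under 2-fold between ribosome-bound and total RNA in all 8 populations. In mature oligodendrocytes, 6 of the 15 core genes fell against cortex total RNA and 1 rose. In the other comparisons of bound with total RNA, the median difference of the core genes lay between -0.13 and 0.46. With the median of each array set to 0, it lay between -0.0027 in progenitors and 1.55 in Pdgf tumours. The median of all tested genes on that scale was 0.11 and 0.96 in the same 2 comparisons. Single genes moved further: Rps15a was low in bound RNA of every glial population and tumour, and Rps27l, Rpl7l1 and Rps19bp1 were high in several.

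Counted over the 19 genes, neurons had none that rose, where 13.4% of all tested genes did, and none that fell, where 14.8% did. By an unadjusted limma p under 0.05, 7 were higher and 1 was lower. All tested genes were not counted at that limit, so unadjusted counts here and below have no background and are no result about the set. In astrocytes 6 rose (31.1% of all tested genes) and 1 fell (29.8%). In mature oligodendrocytes 1 rose (25.2%) and 6 fell (27.7%). Progenitors had 5 that rose (24.4%) and 3 that fell (23.8%), and cortical Olig2 cells 3 that rose (29.5%) and 1 that fell (26.6%). Shares of 19 genes near these backgrounds are no result about the genes as a set. In tumours, each against its own total RNA, 3 rose (16.9%) and 1 fell (15.3%) in Pdgf, 3 rose (20.0%) and 1 fell (18.1%) in Pdgf Cre, and 4 rose (24.1%) and 1 fell (20.2%) in Recruited. The 5 cortical comparisons share the same 5 total RNA arrays, so they are not independent of each other. Neurons had a median difference of 0.36 over the 19 genes, astrocytes of 0.03, mature oligodendrocytes of -0.64, progenitors of 0.01 and cortical Olig2 cells of 0.42, and the median was 0.49 in Pdgf, 0.31 in Pdgf Cre and 0.67 in Recruited tumours, where the median of all tested genes lay between -0.04 and 0.13. For Recruited tumours it was 0.22 without the third total RNA array, in which many of these genes were low, and 2 rather than 4 genes then rose.

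These counts depended on how arrays were put on a common scale. In neurons 12 of the 19 genes rose on the values as deposited, where 3595 of the 9799 tested genes did. With the median of each array set to 0, 13 rose, against 4026 of all. In Pdgf, Pdgf Cre and Recruited tumours 3, 3 and 2 rose as deposited, where 619, 826 and 1404 of all tested genes did. With array medians at 0, 18, 17 and 18 rose, against 4671, 4458 and 4342 of all. In astrocytes 10 rose on that last scale, against 4027 of all. Of all called genes, 47.5% were higher in neurons, but 75.4% on the values as deposited and 78.7% with the median of each array set to 0. In Pdgf, Pdgf Cre and Recruited tumours the shares were 52.4%, 52.5% and 54.4%, against 18.6%, 24.1% and 32.4% as deposited and 83.2%, 79.8% and 76.4% with array medians at 0. In astrocytes and mature oligodendrocytes they were 51.0% and 47.6%, and 62.4% and 66.1% with array medians at 0. The medians of all tested genes moved with the scale, to 0.66 (neurons) and to -0.34, -0.21 and -0.29 (the 3 tumours) as deposited, and with array medians at 0 to 0.77 (neurons), 0.64 (astrocytes), 0.55 (mature oligodendrocytes), 0.11 (progenitors), 0.19 (cortical Olig2 cells) and 0.96, 0.90 and 0.84 in the tumours. The median of the 19 genes minus that of all genes is the same on both of these scales. It was 0.51 for neurons, 0.49 for astrocytes, -0.25 for mature oligodendrocytes, -0.11 for progenitors, 0.25 for cortical Olig2 cells, and 0.66, 0.53 and 0.94 in the tumours.

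**Figure D1:**
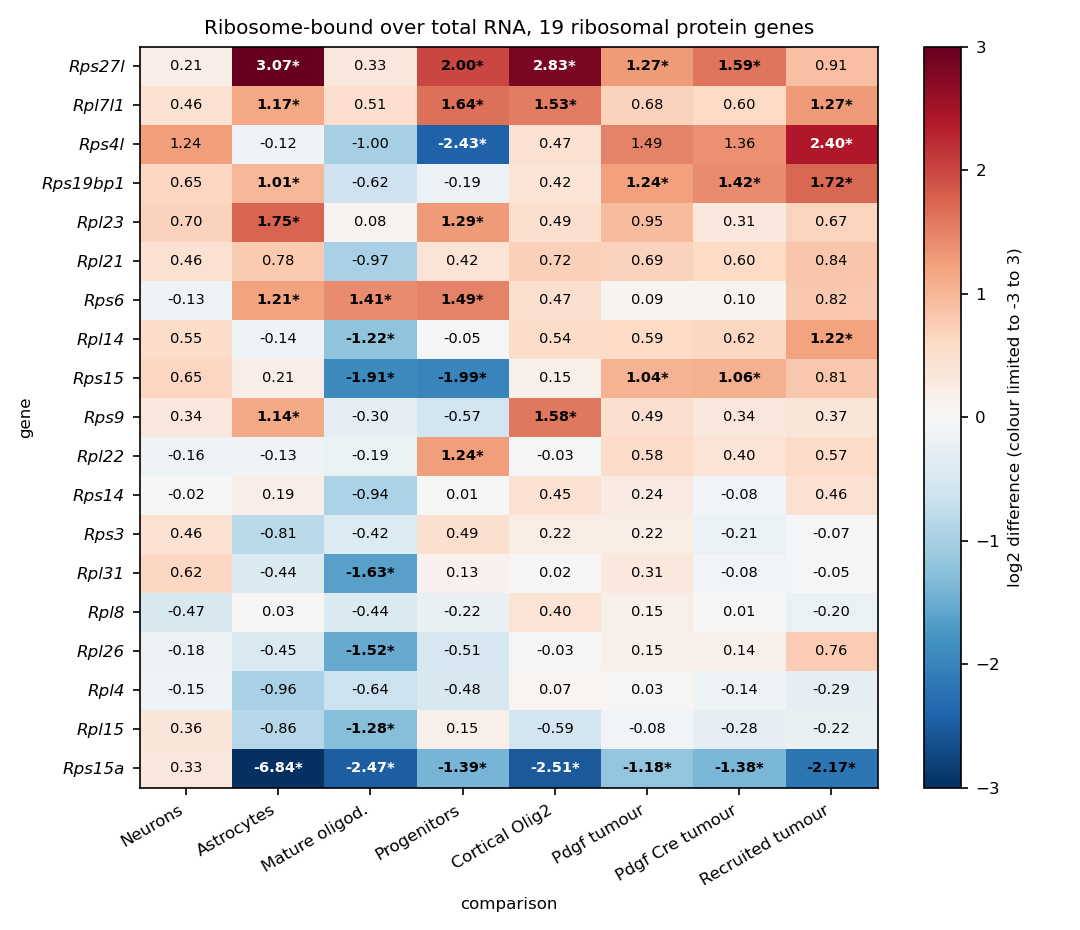
Log2 difference of ribosome-bound over total RNA for the 19 tested genes (rows, ordered by their median over the 8 comparisons) in 5 cortical populations and 3 tumours (columns). Red is higher in bound RNA, blue lower, and values in bold with a star passed the test; Rps15a is blue in 7 columns and Rps27l is red in all 8.

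Rps15a, a protein of the small subunit body, had the widest range of the 19 genes. Its levels in cortex total RNA were 9.21, 9.10, 9.21, 8.77 and 8.76, and in neurons 9.42, 9.27 and 9.33. In astrocytes the 3 arrays read 2.12, 2.28 and 2.12, all dim. Neurons thus lay just above all cortex arrays, and astrocytes far below every other group. Mature oligodendrocytes stood at 6.64, 6.48 and 6.49, cortical Olig2 cells at 6.53, 6.72 and 6.24, and progenitors at 7.80, 7.55 and 7.51. Against cortex total RNA, Rps15a fell at least 10.3-fold in astrocytes (adjusted p = 1.4e-21), by 2.47 ± 0.23 (SE) in mature oligodendrocytes, by 2.51 ± 0.23 in cortical Olig2 cells and by 1.39 ± 0.23 in progenitors (adjusted p = 3.79e-06), and the groups did not overlap in any of these. In neurons the difference was 0.33 ± 0.23 (adjusted p = 0.228).

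The same gene was low on tumour ribosomes against the RNA of the same tumours, which is a separate set of controls. In Pdgf tumours the bound arrays read 7.61, 7.68 and 7.71 and the total arrays 8.68, 8.97 and 8.89. In Pdgf Cre tumours they read 6.76, 6.85 and 6.75 against 8.17, 8.17 and 8.16, and in Recruited tumours 6.91, 8.74 and 8.10 against 10.15, 9.59 and 10.51. No bound array reached a total array of its tumour. Rps15a fell by 1.18 ± 0.25 in Pdgf (adjusted p = 0.000244), by 1.38 ± 0.25 in Pdgf Cre (adjusted p = 3.23e-05) and by 2.17 ± 0.25 in Recruited tumours (adjusted p = 1.68e-08). With each array's median set to 0 the differences in Pdgf and Pdgf Cre were -0.36 and -0.73 and did not pass, and the median difference of all tested genes was then 0.96 and 0.90. Recruited total RNA held the highest mean of all groups, 10.09 ± 0.46 (SD, n = 3). The neuron markers, 6 in number, were also lower in bound RNA of glia and tumours: the log2 of their summed signal was 15.79 to 16.02 in cortex total RNA, 15.89 to 16.00 in neurons, 14.85 to 16.27 in Recruited total RNA and 10.90 to 12.52 in astrocytes, where Syn1 and Syt1 were dim. It was 14.81 to 14.99 in progenitors, 14.58 to 14.62 in mature oligodendrocytes and 12.77 to 13.63 in cortical Olig2 cells. In bound RNA of tumours it was 11.00 to 11.52 in Pdgf, 10.40 to 11.15 in Pdgf Cre and 11.95 to 12.46 in Recruited. The astrocyte sums varied between arrays, and those of bound RNA of Recruited tumours lay between the lowest and the highest of them. The part of neuronal RNA in the levels of Rps15a was not tested. The probe set of a pseudogene, Rps15a-ps6, was dim in every array (at most 4.08).

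Rps27l, a near copy of the small subunit protein Rps27 and a known target of p53, rose in 5 of the 8 comparisons of bound with total RNA. Cortex total RNA read 7.30, 7.46, 7.28, 7.36 and 7.36, neurons 7.61, 7.46 and 7.61, and mature oligodendrocytes 7.65, 7.80 and 7.60. Astrocytes read 10.45, 10.22 and 10.60, cortical Olig2 cells 10.56, 10.25 and 9.73, and progenitors 9.96, 9.69 and 8.39. No array of the first 3 groups reached any array of the last 3. Rps27l rose by 3.07 ± 0.35 in astrocytes (8.41-fold, adjusted p = 3.39e-09), by 2.83 ± 0.35 in cortical Olig2 cells and by 2.00 ± 0.35 in progenitors. The differences in neurons (0.21 ± 0.35) and mature oligodendrocytes (0.33 ± 0.35) did not pass.

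In tumours Rps27l was high in both kinds of RNA and higher on ribosomes. Pdgf bound arrays read 12.07, 11.50 and 11.86 against 11.02, 9.90 and 10.70 in total RNA, and Pdgf Cre bound arrays 12.03, 12.13 and 11.89 against 10.36, 10.49 and 10.42. It rose by 1.27 ± 0.39 in Pdgf (adjusted p = 0.00673) and by 1.59 ± 0.39 in Pdgf Cre (adjusted p = 0.000804). Without the second Pdgf total array the first difference was 0.95 and did not pass. In Recruited tumours the bound arrays, at 10.62, 10.53 and 9.62, overlapped the total arrays, at 10.44, 9.53 and 8.06, and the difference of 0.91 ± 0.39 did not reach 2-fold.

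Rpl7l1, a nucleolar relative of Rpl7 that takes part in making the large subunit, lay above total RNA in all 8 comparisons and reached 2-fold in 4. Cortex total RNA read 8.67, 8.60, 8.65, 8.64 and 8.34, and no array of the 5 cortical populations was lower than 9.04. It rose by 1.64 ± 0.12 in progenitors, by 1.53 ± 0.12 in cortical Olig2 cells and by 1.17 ± 0.12 in astrocytes, and the differences were 0.51 in mature oligodendrocytes and 0.46 in neurons. In Recruited tumours it rose by 1.27 ± 0.13, and the difference was 0.99 without the third total array and 0.99 on the deposited values. In Pdgf and Pdgf Cre tumours the differences were 0.68 and 0.60.

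Rps4l, a relative of the small subunit protein Rps4x, varied widely between arrays. Its 3 arrays of Recruited total RNA read 2.87, 5.65 and 8.28 and those of Pdgf total RNA 8.0, 4.02 and 8.30. It rose by 2.40 ± 0.93 in bound RNA of Recruited tumours (adjusted p = 0.0254), with overlapping arrays and 1 of 3 total arrays dim, and it did not pass on the deposited values (1.57) or with only the arrays compared. The difference ran from 1.03 to 3.74 with single arrays left out and did not pass in 3 of 6 cases. It fell by 2.43 ± 0.84 in progenitors, at 5.54, 4.12 and 6.72 with 2 of 3 arrays dim, and the difference did not pass without the second array (-1.76).

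Rps19bp1, the nucleolar partner of Rps19, was higher on ribosomes in all 3 tumours. Total RNA read 10.40, 9.46 and 9.75 in Pdgf, 10.09, 10.25 and 10.09 in Pdgf Cre, and 8.82, 8.77 and 8.79 in Recruited tumours. Bound RNA read 11.41, 10.70 and 11.20, then 11.59, 11.54 and 11.55, and then 10.65, 10.42 and 10.47. No bound array lay below a total array of its tumour. The rises were 1.24 ± 0.17, 1.42 ± 0.17 and 1.72 ± 0.17 in the same order (largest adjusted p = 4.81e-07). In astrocytes it rose by 1.01 ± 0.15, which dropped under 2-fold without either of 2 arrays (0.92 at the lowest).

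Among the core proteins of the large subunit, mature oligodendrocytes stood apart on the low side in gene-by-gene differences on the quantile scale. Rpl31 and Rpl26, which sit near the exit of the tunnel, fell by 1.63 ± 0.33 and 1.52 ± 0.18, Rpl15 fell by 1.28 ± 0.17, and Rpl14 fell by 1.22 ± 0.27. For Rpl31 the 3 arrays read 8.68, 8.69 and 8.67 against 10.51, 10.20, 10.53, 10.58 and 9.71 in cortex total RNA. For Rpl26 they read 12.97, 13.32 and 12.98 against 14.59, 14.73, 14.69, 14.69 and 14.34. All 9 large subunit genes except Rpl23 had a negative difference there, with a median of -0.97. Taken array by array, mature oligodendrocytes did not stand apart. The median level of the 15 core genes above that of all tested genes was 3.56 ± 0.22 (SD). It was 3.66 ± 0.45 in cortex total RNA and 3.29 ± 0.38 in progenitors. With each array's median set to 0, the median of the 15 core genes was 0.03 in place of -0.94, while that of all tested genes was 0.55 in place of -0.04, so the core genes lay 0.51 below all genes in place of 0.90. On that scale none of the 4 named falls passed, at -0.76 for Rpl31, -0.55 for Rpl26, -0.26 for Rpl15 and -0.31 for Rpl14, and on the deposited values Rpl15 (-0.71) and Rpl14 (-0.77) did not pass.

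Rpl22, a large subunit protein that also binds other RNA, was highest in progenitors among the cortical groups. They read 13.36, 13.37 and 13.60, where no array of the other cortical groups, cortex total RNA included, exceeded 12.44. Its rise in progenitors was 1.24 ± 0.19 (2.37-fold, adjusted p = 1.57e-06), and the differences in the other 4 populations lay between -0.19 and -0.03. Rpl23, a large subunit protein known to bind the p53 regulator Mdm2, lay above total RNA in all 8 comparisons. It rose in astrocytes by 1.75 ± 0.25, at 9.44, 9.75 and 9.47 against 7.87, 7.82, 7.54, 8.13 and 7.67, and in progenitors by 1.29 ± 0.25, at 9.11, 9.14 and 9.04. Rpl4 and Rpl8, which shape the tunnel and the site of peptide bond formation, passed in none of the 8 comparisons. Their differences lay between -0.96 and 0.07 and between -0.47 and 0.40. Rpl21 passed in none either, with differences between -0.97 and 0.84, and Rpl14 rose in Recruited tumours by 1.22 ± 0.30 where the difference without the third total array was 0.71, and without the first bound array 0.89, and neither passed.

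Among those of the small subunit, Rps6 and Rps15 moved in opposite directions in mature oligodendrocytes and in progenitors. Rps6, which the S6 kinases phosphorylate when growth signals are on, read 10.86, 10.79, 10.81, 10.75 and 10.28 in cortex total RNA and 10.57, 10.51 and 10.63 in neurons. It read 12.23, 12.18 and 11.90 in mature oligodendrocytes, 12.22, 12.35 and 11.99 in progenitors, and 11.80, 11.89 and 12.03 in astrocytes. All arrays of these 3 populations lay above all of cortex and neurons. The rises were 1.41 ± 0.25, 1.49 ± 0.25 and 1.21 ± 0.25 (largest adjusted p = 8.64e-05). In cortical Olig2 cells the difference was 0.47 ± 0.25, and in the tumours it lay between 0.09 and 0.82.

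Rps15, a protein near the decoding site, read 11.83, 11.67, 11.79, 12.55 and 12.67 in cortex total RNA. Mature oligodendrocytes read 10.16, 10.42 and 9.996 and progenitors 10.45, 10.32 and 9.57, lower than all cortex arrays. Rps15 fell by 1.91 ± 0.25 and 1.99 ± 0.25 (adjusted p = 5.99e-08 and 3.47e-08), while with array medians at 0 the difference in mature oligodendrocytes was -0.95 and did not pass. Cortical Olig2 cells, at 12.51, 12.14 and 12.10, lay within the cortex range. On tumour ribosomes Rps15 rose by 1.04 ± 0.28 in Pdgf and 1.06 ± 0.28 in Pdgf Cre, and neither reached 2-fold without either of 2 arrays (lowest 0.82 and 0.98). Progenitor arrays had the strongest 3′ bias of the control probe sets for actin (3′ minus 5′ of 6.51 ± 0.43, against 4.53 ± 1.02 in cortex total RNA and 2.62 to 3.66 in the other groups), and the part of RNA length in their values was not tested.

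Rps9, which helps set decoding accuracy, rose in cortical Olig2 cells by 1.58 ± 0.36 and in astrocytes by 1.14 ± 0.36. Both groups overlapped cortex total RNA, because the fifth cortex array read 13.30 and the other 4 between 11.06 and 11.51. Without that array the rises were 1.96 and 1.52. The fifth array also had the weakest 3′ bias of the cortex total arrays for actin, 2.76 against 4.66 to 5.30 in the other 4. Cortical Olig2 arrays had 2.57 to 2.99 and astrocyte arrays 2.41 to 3.72, and the part of RNA length in these rises was not tested. The rise in astrocytes did not pass without the first astrocyte array (0.88) or the second cortex array (0.96). Rps14 and Rps3 passed in none of the 8 comparisons, with differences of -0.94 to 0.46 and -0.81 to 0.49.

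**Figure D2:**
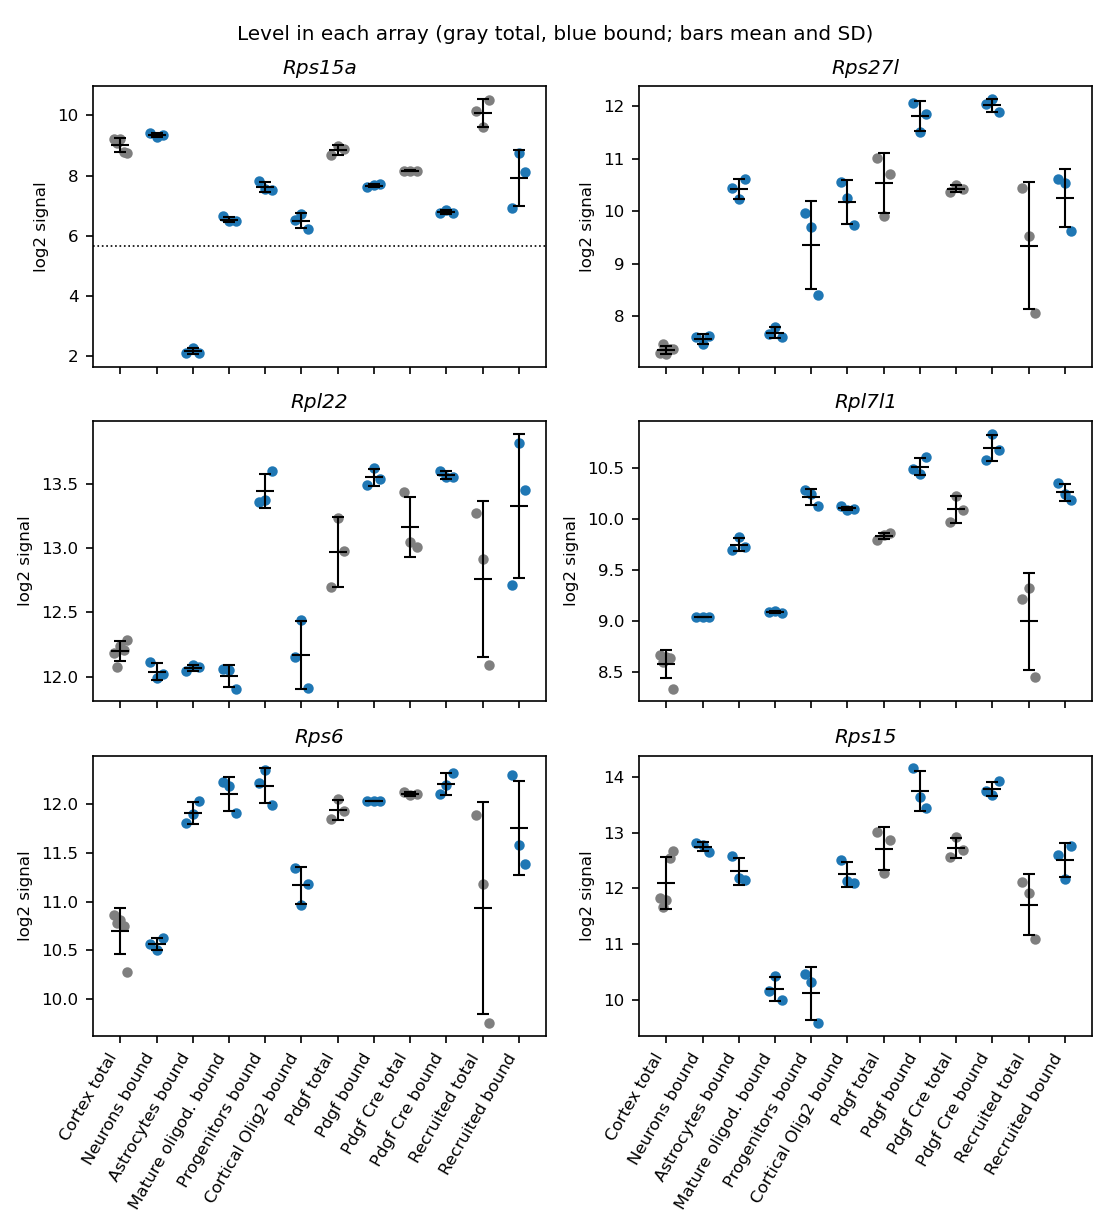
Log2 signal of 6 genes in each array (points) of the 12 groups, gray for total and blue for ribosome-bound RNA, with the mean and SD in black; the dotted line for Rps15a is the dim limit of 5.64. Astrocytes sit under that line for Rps15a, and progenitors sit above the other cortical groups for Rpl22.

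The starts of the genes were read for the pyrimidine tract through which translation of ribosomal protein messages is controlled. Start sites came from a table of RefSeq starts (GRCm38.p6) that held 17 of the 21 genes, 12 of them core genes. Some genes have more than 1 start, and each gene is counted once below, against single starts for the whole table. A tract was a C at the start site followed only by C or T, at least 5 bases long, on the strand of the gene. It was present at a listed start of 4 of the 17 genes, all 4 core genes, and at 2.505% of all 32851 starts in the table. With the first base allowed up to 5 bases to either side, it was present in 7 of 17 genes (6 of 12 core genes) and in 18.346% of all starts. The 4 are shown because their messages went different ways on the ribosomes, with 10 bases before the start and 20 from it on, and in capitals the longest run of C and T that begins with a C within 5 bases of the start, so that a C or T next to it can stand in lower case:
Rps6 (chr4:86857348-86857377, minus strand): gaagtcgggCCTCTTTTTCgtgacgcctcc
Rps15a (chr7:118116128-118116157, minus strand): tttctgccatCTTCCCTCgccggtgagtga
Rpl14 (chr9:120571507-120571536, plus strand): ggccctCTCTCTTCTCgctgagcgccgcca
Rpl15 (chr14:18270967-18270996, minus strand): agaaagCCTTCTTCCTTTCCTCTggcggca
Rps6 rose in bound RNA of 3 glial populations, Rps15a fell in the same 3 and in cortical Olig2 cells and the tumours, Rpl15 fell in mature oligodendrocytes only, and Rpl14 fell there and rose in Recruited tumours. Rps27l had a tract of 5 bases that began 1 base after 1 of its 2 listed starts:
Rps27l (chr9:66946076-66946105, plus strand): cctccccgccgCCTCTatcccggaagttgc
A match is a description of these letters. Whether a listed start is the one used in these cells was not measured.

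Progenitors and mature oligodendrocytes, the ends of the lineage, differed mostly in one direction on the quantile scale. Of the 19 genes, 10 were higher in bound RNA of progenitors (18.8% of all tested genes) and none lower (19.9%). By an unadjusted limma p under 0.05, 13 were higher and 0 lower, with no count of all tested genes at that limit. The median difference was 1.01, and that of all tested genes -0.02. Taken array by array, the median level of the 15 core genes above that of all tested genes had the other order, 3.29 ± 0.38 in progenitors and 3.56 ± 0.22 in mature oligodendrocytes (SD, n = 3). Rpl31 was higher by 1.76 ± 0.37, Rps27l by 1.67 ± 0.39 and Rpl22 by 1.44 ± 0.22. Of the 9 core genes of the large subunit 7 were higher, all but Rpl4 and Rpl8, and of the 6 of the small subunit 1 was, Rps15a, which missed 2-fold without the first progenitor array (0.99). Rpl26, at 1.01 ± 0.20, did not reach 2-fold in 4 of 6 cases with an array left out (lowest 0.83). This count depends on the scaling: on the deposited values 3 genes were higher, against 1558 of all tested genes. With array medians at 0 none was higher and 2 were lower, against 1328 and 3635 of all. The median of the 19 genes lay 0.69 above that of all genes on both. Of all called genes 48.6% were higher in progenitors, and 35.5% and 26.8% on those scales. Dividing-cell markers moved in the same direction, 4 of 4 higher in progenitors (summed log2 signal 10.58 to 11.46, against 4.91 in mature oligodendrocytes, where all 4 were dim), and their part was not tested. The 3′ bias also differed, at 6.51 in progenitors against 3.64 in mature oligodendrocytes for actin and 6.35 against 3.54 for Gapdh. The part of RNA length in this comparison was not tested.

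Astrocytes and neurons differed by single genes in both directions. Of the 19 genes 3 were higher in astrocytes (27.6%) and 4 lower (29.3%), with a median difference of 0.03. Rps27l was higher by 2.86 ± 0.39, Rps6 by 1.34 ± 0.28 and Rpl23 by 1.04 ± 0.28, which was 0.95 and missed 2-fold without the second astrocyte array. Rps15a was lower by at least 12.96-fold. The differences of Rps3, Rpl15 and Rpl31 were -1.27 ± 0.14, -1.22 ± 0.19 and -1.05 ± 0.37, the last not passing without the first astrocyte array. On the deposited values the median difference of all genes was -0.65, and 33.1% rather than 48.5% of all called genes were higher. Of the 19 genes 1 was then higher and 7 lower, against 2071 and 4180 of all tested genes. Rps6 (0.76) and Rpl23 (0.33) did not pass on that scale.

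Some of the tested ribosomal protein messages were higher on ribosomes of Olig2 cells in Pdgf and Pdgf Cre tumours than on those of cortical Olig2 cells, and none was lower. In Pdgf tumours 8 of 19 genes were higher (16.0%) and none lower (16.0%), with a median difference of 0.86, and in Pdgf Cre tumours 9 were higher (17.7%) and none lower (18.3%), with a median of 0.92. All tested genes had medians of 0.06 and 0.03. With single arrays left out, Rps9 (1.07), Rps6 (1.04) and Rpl14 (1.06) in Pdgf Cre did not pass in 4, 2 and 2 of 6 cases. Rps3 (1.06) in Pdgf did not pass in 1 of 6. All 15 core genes had positive differences in both tumours, with medians of 0.99 and 1.04, and did so on the deposited values (1.19 and 1.00) and with array medians at 0 (1.31 and 1.26). In Recruited tumours 2 genes were higher (12.9%) and none lower (14.6%), with a median of 0.32. By an unadjusted limma p under 0.05, 15, 17 and 7 were higher in the 3 tumours and 0 lower in each. No count of all tested genes was made at that limit, so these numbers have no background. Of all called genes 50% were higher in Pdgf and 47.0% in Recruited tumours, against 61.5% and 57.6% with array medians at 0. On the deposited values 63.4% were higher in Recruited tumours, where 4 of the 19 genes and 1870 of all tested genes were higher. The 3 comparisons share the 3 arrays of cortical Olig2 cells.

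Rpl22 was higher in all 3, by 1.38 ± 0.22, 1.40 ± 0.22 and 1.16 ± 0.22. Its bound arrays read 13.49, 13.62 and 13.54 in Pdgf, 13.60, 13.55 and 13.55 in Pdgf Cre and 12.71, 13.82 and 13.45 in Recruited tumours, against 12.15, 12.44 and 11.92 in cortical Olig2 cells. Without the second Recruited array the last difference was 0.91 and did not pass. Rpl23 was higher by 1.67 ± 0.28 in Pdgf and 1.59 ± 0.28 in Pdgf Cre, and Rps27l by 1.63 ± 0.39 and 1.84 ± 0.39. Rps15 was higher by 1.5 ± 0.28 and 1.53 ± 0.28, at 14.16, 13.65 and 13.45 and at 13.76, 13.67 and 13.92. Rps15a was higher in Recruited (1.42 ± 0.25) and Pdgf tumours (1.17 ± 0.25), and its difference in Pdgf Cre was 0.29 ± 0.25. With only the arrays compared, the difference in Recruited tumours, whose bound arrays ran from 6.91 to 8.74, did not pass.

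The cells compared differed in more than being tumour or normal. Markers of mature oligodendrocytes fell in 5 of 5 in Pdgf and Pdgf Cre tumours (summed log2 signal 11.34 to 12.59, against 16.08 to 16.12 in cortical Olig2 cells), with Mag and Mobp dim in Pdgf, and dividing-cell markers rose in 4 of 4 (12.16 to 14.01, against 9.97 to 10.16). In Recruited tumours none of the 5 mature markers passed (14.84 to 16.55), and 3 of 4 dividing-cell markers rose (11.05 to 12.86). Of 7 microglia and macrophage markers (summed log2 signal 8.18 to 12.81 against 7.27 to 7.53), 6 were dim in all arrays of cortical Olig2 cells and 4, 5 and 3 in those of Pdgf, Pdgf Cre and Recruited tumours, with Aif1, Csf1r and Cx3cr1 dim in all 3, and Ctss, above the limit in all of them, rose by 2.59, 2.11 and 3.24. Neuron markers fell in 5, 5 and 3 of 6 (10.40 to 12.46 against 12.77 to 13.63), with Syt1 dim in all. The part of any of these in the ribosomal protein messages was not tested.

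On the quantile scale, total RNA of the tumours was also above cortex for many of these genes. In Pdgf tumours 7 rose (25.0%) and none fell (25.5%), in Pdgf Cre 8 rose (22.8%) and none fell (25.0%), and in Recruited 3 rose (23.7%) and 2 fell (26.4%). By an unadjusted limma p under 0.05, 15, 16 and 9 were higher, and 1 was lower in Pdgf (Rps19bp1), 1 in Pdgf Cre (Rps15a) and 4 in Recruited. Here too all tested genes were not counted at that limit. The medians were 0.77, 0.96 and 0.40, and those of all tested genes 0.00, -0.05 and -0.08. With array medians at 0 they were -0.12, 0.09 and -0.25, and 1, 2 and 1 genes rose, where 1770, 1546 and 1699 of all tested genes did. The medians of all genes were then -0.57, -0.62 and -0.58. Against these the medians of the 19 genes lay 0.45, 0.71 and 0.33 higher. Of all called genes 49.5%, 47.7% and 47.3% were higher, against 33.1%, 29.8% and 31.4% with array medians at 0 and 65.6%, 52.1% and 69.4% on the deposited values. Rps27l rose in all 3, by 3.19 ± 0.35 (9.11-fold), 3.07 ± 0.35 and 1.99 ± 0.35, and under both other scalings (lowest 1.39). Rps9 rose by 1.86 ± 0.36, 2.30 ± 0.36 and 1.60 ± 0.36, overlapping the fifth cortex array in Pdgf and Recruited. The differences in these 2 with array medians at 0 were 0.96 and 0.78 and did not pass. The fifth cortex array had an actin 3′ bias of 2.76, against 4.66 to 5.30 in the other cortex total arrays. Tumour total arrays had 2.17 to 3.73, and the part of RNA length was not tested.

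Rps19bp1 fell in Recruited total RNA by 1.45 ± 0.15 with no overlap, and on the deposited values the difference was -0.89 and missed 2-fold. Rps4l, with 1 of the 3 arrays dim, fell there by 2.29 ± 0.84, and the difference did not pass without the first array (-0.93), on the deposited values (-1.43) or with only the arrays compared. Rps15a rose there by 1.08 ± 0.23, and the difference was 0.86 without the third array and 0.49 with array medians at 0, and neither passed. Without the third array 5 genes in place of 3 rose. Microglia and macrophage markers rose in 6 of 6 tested in each tumour (summed log2 signal 12.76 to 15.61 over the 3 tumours, against 10.44 to 11.41 in cortex; Cx3cr1 was dim in Pdgf and Pdgf Cre). Progenitor markers rose in 6 of 6 (14.32 to 15.99, against 12.98 to 13.45) and dividing-cell markers in 4 of 4 (8.52 to 14.04, against 5.36 to 5.60), and their part was not tested.

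**Figure D3:**
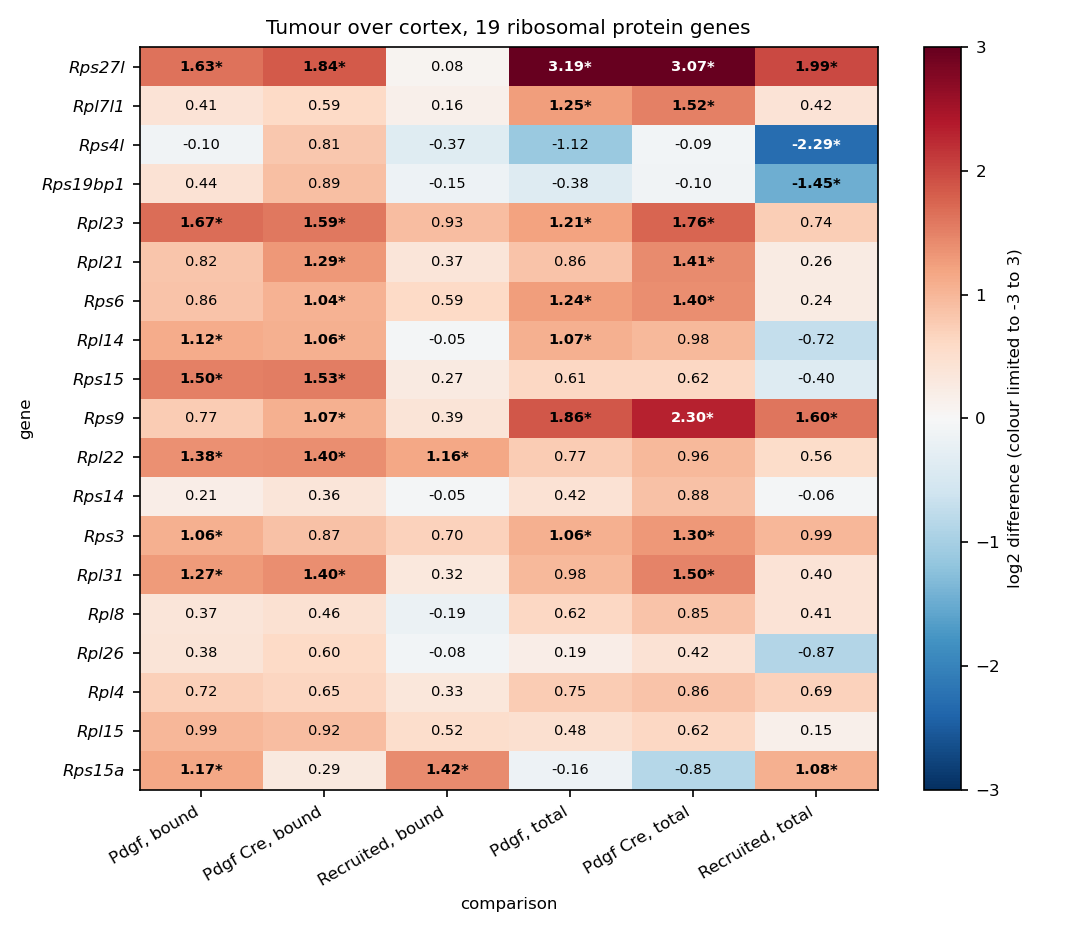
Log2 difference of tumour over cortex for the 19 tested genes (rows): bound RNA of tumour Olig2 cells over that of cortical Olig2 cells in the first 3 columns, tumour total RNA over cortex total RNA in the last 3. Values in bold with a star passed the test; Rpl22 passed in all 3 bound columns and Rps27l in all 3 total columns.

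Whether the ratio of bound to total RNA differed between tumours and cortical Olig2 cells was tested as a difference of differences, the mean of the 3 tumours minus cortex. Of the 19 genes 1 was higher (21.8%), 2 were lower (22.1%), and the median was 0.04. The enrichment of Rps27l on ribosomes was smaller in tumours by 1.57 ± 0.41 (adjusted p = 0.00159), and that of Rps9 by 1.18 ± 0.43 (adjusted p = 0.0181). That of Rps19bp1 was larger by 1.04 ± 0.18 (adjusted p = 1.5e-05), and was 0.97 and 0.99 without the second Pdgf total or the first Pdgf bound array. Rps9 did not pass without the second cortical Olig2 array (-1.07). Of all called genes 49.7% were higher, against 74.3% with array medians at 0 and 35.9% as deposited. With array medians at 0 the differences for Rps27l and Rps9 were -0.47 and -0.13 and did not pass, and on the deposited values that of Rps19bp1 was 0.98 and missed 2-fold. The same ratio fell by 5.33 for Olig2, after which these reporter cells are named, and by 3.03 for Cnp. The mean level of Olig2 was 12.12, 11.28 and 11.37 in total RNA of Pdgf, Pdgf Cre and Recruited tumours, against 6.18 in that of cortex, and the part of the share of Olig2 cells in total RNA was not tested. With replicate numbers as a block, which pair the bound and total arrays of the tumours, Rps19bp1 stood at 0.99 and missed 2-fold, and Rps15a rose by 1.10.

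The rest of the translation machinery gave a frame for these values. Counts for these other lists were made on the quantile scale only, and how far they move with the scale was not tested. Of 66 genes for proteins of the mitochondrial ribosome, which makes the membrane proteins of the respiratory chain, 65 were tested. In bound over total RNA 27 of them rose in neurons (41.5%, against 13.4% of all tested genes) and 40 in astrocytes (61.5% against 31.1%). The 16 in mature oligodendrocytes (24.6% against 25.2%) and 20 in cortical Olig2 cells (30.8% against 29.5%) were near the background, and the 7 in progenitors (10.8% against 24.4%) were under it. In Pdgf, Pdgf Cre and Recruited tumours 35 (53.8% against 16.9%), 39 (against 20.0%) and 40 (61.5% against 24.1%) rose. None fell except 2 in mature oligodendrocytes and 3 in progenitors, where 27.7% and 23.8% of all tested genes fell. Against cortical Olig2 cells 3 (4.62% against 16.0%) and 9 (13.8% against 17.7%) rose in Pdgf and Pdgf Cre tumours, with medians of 0.19 and 0.37, where the core genes of the cytosol had 0.99 and 1.04. The difference between the sets was not tested.

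**Figure D4:**
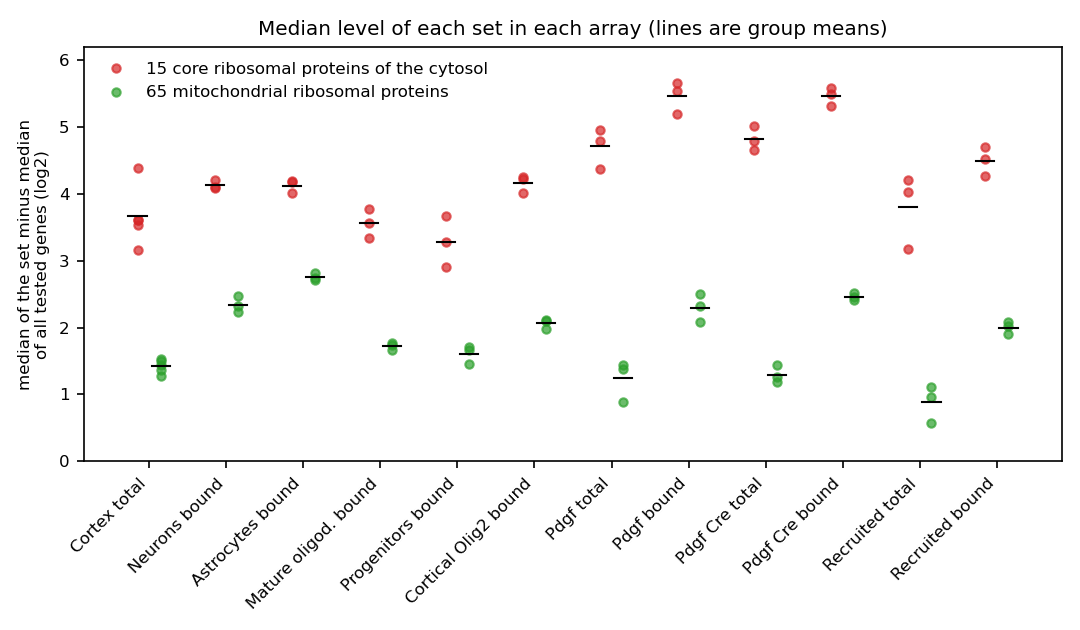
Median log2 level of the 15 core genes of the cytosolic ribosome (red) and of the 65 tested genes of the mitochondrial ribosome (green) in each array, as a difference from the median of all tested genes, with group means as lines. The red means are 4.71 and 4.83 in total RNA of Pdgf and Pdgf Cre tumours against 3.66 in cortex, and 5.46 in bound RNA of both against 4.16 in cortical Olig2 cells, and the green points lie higher in bound than in total RNA of each tumour.

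Elongation factors and other messages known to carry the pyrimidine tract were 8 in number. Against cortical Olig2 cells 2 of them rose in Pdgf (16.0% of all tested genes), 4 in Pdgf Cre (17.7%) and none in Recruited tumours (12.9%), and none fell. The medians were 0.79, 0.92 and 0.41, with positive differences in 8, 8 and 7 of 8. Eef2, the factor that moves the ribosome along, rose by 1.02 and 1.16, and Nap1l1 by 1.19 and 1.10. In bound over total RNA 0 to 1 of the 8 rose and 0 to 3 fell in each comparison. Of all tested genes 13.4% to 31.1% rose and 14.8% to 29.8% fell there, and 8 genes are too few for a share to be read. Of 8 initiation factors 2, 1 and 0 rose against cortical Olig2 cells in Pdgf, Pdgf Cre and Recruited tumours, where 16.0%, 17.7% and 12.9% of all tested genes rose. Of 20 ribosome assembly genes 5, 11 and 3 rose and 0, 0 and 4 fell, and both counts in Recruited tumours were near the 12.9% and 14.6% of all genes. Wdr12, which acts in large subunit assembly, rose by 3.23 in Pdgf Cre. Of 5 growth control genes, too few for a share to be read, 3, 4 and 4 rose, 0, 0 and 1 fell, and those that rose included Myc, a driver of ribosome production, by 3.38, 3.55 and 2.42 and Mycn by 3.38, 3.42 and 2.91.

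Within the ribosome, genes of the peptide exit tunnel and its rim (Rpl4, Rpl22, Rpl26 and Rpl31) had a median of -1.08 in mature oligodendrocytes. Of these 4, Rpl26 and Rpl31 fell there (27.7% of all tested genes), and neither passed with array medians at 0. In Pdgf and Pdgf Cre tumours against cortical Olig2 cells the medians were 0.99 and 1.03. In each, 2 of 4 rose, where 16.0% and 17.7% of all tested genes did. All 4 are among the core genes counted above and are too few for a share to be read. The 2 at the path of the message, Rps3 and Rps15, had medians of 1.28 and 1.20 in the same tumour comparisons. Rpsa, a ribosomal protein gene outside the naming rule, was dim in all arrays.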

How the data were processed

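RNA from 38 mouse samples was read on 1-colour arrays. The deposited values are log2 signals, which the submitters' processing notes say came from GCRMA, with no version given. Values were quantile normalized over the 38 arrays, each named gene had 1 probe set, and genes that exceeded log2 50 (5.64) on 3 or more arrays were fitted together with limma 3.58.1 in R 4.3.3, as 12 group means with 26 residual degrees of freedom. This tested 9799 genes, and 5845 were not tested. Benjamini-Hochberg adjustment ran over all tested genes of each comparison. The fit was run on simulated data with independent errors and 200 changed genes in a single comparison. Such data hold no uncertain scale between groups and no paired arrays, so the run cannot speak to either. No array column was left unused. Array number limits the precision.

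Bound and total arrays of the same number deviated together in the tumours (correlations of 0.626, 0.618 and 0.473 in Pdgf, 0.621, 0.428 and 0.555 in Pdgf Cre, and 0.466, 0.266 and 0.488 in Recruited), and those of cortex did not in all pairs. The replicate block was therefore read as a pairing in tumours only, and it changed no tumour bound-over-total call. Other alternatives were the values as deposited, array medians set to 0, no filter, only the arrays compared, and each array left out. Start sites came from RefSeq (GRCm38.p6). Named members are those with the 3 largest rises and falls among the calls of each comparison, the 5 highest and 5 lowest medians and 3 widest ranges over bound-over-total comparisons, and the variants; the other members are given so that each is accounted for, and genes of other lists are among the 3 with the largest change. The members, lists and markers were chosen with earlier results of these data known.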

Additional observations from a re-analysis of the deposited data

Results flagged for a closer look

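In 5 of the 19 genes tested for it, 1 of the 5 cortex total arrays stood apart by its gap to the nearest array, as a share of the range over the 5 (Dixon's test). Chance alone marks about 1 in 20 groups, but the 19 genes share the same 5 arrays, so their number cannot be set against that rate. The fifth array was the one apart for Rps9, high with a share of 0.797, and for Rps6 (0.801), Rpl21 (0.809) and Rpl7l1 (0.793), low in each. The fourth was apart for Rpl4 (0.757), high by little. The fifth array also had the weakest 3′ bias of the 5, for actin (2.76, against 4.66 to 5.30) and for Gapdh (1.94, against 3.92 to 5.52). Without the fifth array, counts of called genes in the comparisons with cortex total RNA moved by at most 1.

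The ratio of bound to total RNA differed between the tumours and cortical Olig2 cells, by limma's test of that difference, for Rps27l (-1.57), Rps9 (-1.18) and Rps19bp1 (1.04). For Rps9 the cortical ratio rests on cortex total arrays of which the fifth was far above the others, and the difference did not pass without the second cortical Olig2 array. Dataset and tissue cannot be told apart here.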

How the results depend on the processing

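Over the 19 genes and 17 comparisons there were 323 differences, of which 98 passed. With no filter on low values none changed its call. The values as deposited lost 17 calls and added 24, and array medians set to 0 lost 34 and added 74. Fitting only the arrays compared lost 5 and added 4, and leaving out single arrays lost 24 and added 22, each counted once. The replicate block lost 2 and added 3: Rps9 in Pdgf Cre tumours over cortical Olig2 cells (0.66) and Rps19bp1 in the comparison of ratios (0.99) were lost, and Rpl21 in mature oligodendrocytes (-1.09), Rpl15 in Pdgf tumours over cortical Olig2 cells (1.06) and Rps15a in the comparison of ratios (1.10) were added. Cortical arrays share a number without being paired (correlations from -0.189 to 0.214).

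With array medians at 0 the sign turned, with a call, for Rps14 in neurons (1.07), for Rpl15 in Pdgf bound over total RNA (1.33), for Rpl31 (1.19), Rps14 (1.27), Rpl15 (1.05) and Rpl4 (1.20) in Pdgf Cre, and for Rpl31 (1.00), Rpl8 (1.13), Rps3 (1.01), Rpl15 (1.09) and Rpl4 (1.05) in Recruited tumours. On that scale the median of all tested genes was 0.77 in neurons and 0.96, 0.90 and 0.84 in bound over total RNA of these tumours. It was negative in tumour total RNA over cortex and in progenitors over mature oligodendrocytes. The cause of these shifts was not tested. Counts of higher genes with array medians at 0 were 13 in neurons and 10 in astrocytes, against 4026 and 4027 of all tested genes. In mature oligodendrocytes 2 were higher and 1 lower, against 3874 and 1983 of all tested genes. Bound over total RNA of tumours had 18 higher in Pdgf, 17 in Pdgf Cre and 18 in Recruited, against 4671, 4458 and 4342 of all. There 0 were lower in Pdgf and Pdgf Cre, against 945 and 1129 of all. In total RNA over cortex the counts higher were 1 in Pdgf, 2 in Pdgf Cre and 1 in Recruited tumours, against 1770, 1546 and 1699 of all. Those lower were 1, 1 and 5, against 3574, 3639 and 3708 of all tested genes. In progenitors over mature oligodendrocytes 0 were higher and 2 lower, against 1328 and 3635 of all. The comparison of ratios had 9 higher and 0 lower, against 3984 and 1379 of all tested genes. On the deposited values 12 were higher in neurons, 2 in Recruited bound over total RNA and 4 in Recruited over cortical Olig2 cells. Of all tested genes 3595, 1404 and 1870 were. Recruited total RNA over cortex had 5 higher and 0 lower, against 3334 and 1471 of all tested genes. Progenitors over mature oligodendrocytes had 3 higher, against 1558 of all. Astrocytes over neurons had 1 higher and 7 lower, against 2071 and 4180 of all. The comparison of ratios had 0 higher, against 1519 of all. With only the arrays compared, 1 was higher in neurons, 2 in Recruited bound over total RNA and 1 in Recruited over cortical Olig2 cells, and 1 was lower in Recruited total RNA.

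With an array left out, astrocytes had 1 to 2 lower, Recruited bound over total RNA 2 to 8 higher, Recruited over cortical Olig2 cells 1 to 3 higher, Recruited total RNA over cortex 3 to 5 higher, and the comparison of ratios 0 to 2 higher and 1 to 2 lower. The other counts stayed within 1.5 times of those reported under the alternatives run. Dim signals give only bounds, as for Rps15a in astrocytes.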
